A study of Mus musculus with 11 samples.

Results

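The 10 genes Csf1, Il34, Csf1r, Ccr2, Cx3cr1, Trem2, Gpnmb, Cd68, Lgals3 and Lyz2 were followed in whole mouse livers in which YAP was induced. They were chosen as the Csf1 axis of macrophages together with genes of monocyte-derived, recruited macrophages, and were found in the expression table by their symbols. All 10 were present among its 20893 genes and among the 14244 genes that passed the filter for testing, which asked for at least 0.5 eRPKM in at least 3 livers. An eRPKM is a number of reads on the exons of a gene, divided by exon length and by the size of the library. The reads per kilobase of the highest genes did not follow depth, so an order by eRPKM need not be one of RNA amount. Gpnmb reached 0.5 eRPKM in 4 livers, 3 of them at 7 days of induction, and was tested only because of the group in which it was high.

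RNA-seq was performed on 11 livers of C57BL/6 mice, with a single library per liver. All mice carried ROSA26-rtTA-IRES-EGFP, which encodes the doxycycline-responsive activator rtTA, and all received doxycycline. The 4 controls are labelled WT and ate doxycycline food for 7 days. The induced mice carried tetYAP, a doxycycline-driven and constitutively active YAP, and were treated for 3 days (4 livers) or for 7 days (3 livers). According to the study's methods, a Cre driven by the albumin promoter restricts rtTA to hepatocytes, and the labels do not state whether the controls carried this Cre. Nothing in the labels ties livers of a group to separate litters or days, so p-values measure the spread between these livers, which may be technical. The labels of 3-day livers 1 and 4 and of 7-day liver 2 also carry the suffix MF, whose meaning they do not give.

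Csf1 and Il34 are the secreted ligands of Csf1r, the receptor tyrosine kinase on which tissue macrophages depend for survival and proliferation. In the liver the resident macrophages are the Kupffer cells, and monocytes that enter from blood, guided by the chemokine receptor Ccr2, can add to them or replace them. Trem2, Gpnmb, Cd68 and Lgals3 are known from lipid-laden or phagocytic macrophages in injured liver, and Lyz2 encodes lysozyme M of myeloid cells. Csf1r, Cd68 and Lyz2 are also expressed by Kupffer cells, and Csf1 and Il34 are made mostly by cells other than macrophages, so the set is not restricted to recruited cells. In whole liver, a change in the number of cells of a type and a change in RNA per cell cannot be told apart.

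Depth moved with the groups. It ranged from 1251396 to 5495697 reads on genes in the controls, from 2660233 to 3681416 in 3-day livers and from 5312486 to 5941357 in 7-day livers. The most reads per kilobase on any gene lay between 1281 and 1501 in every library, although depth differed 4.75-fold between the shallowest and the deepest. Sex moved with the groups as well: Xist, the X-inactivation RNA, was at 78.5 to 133 eRPKM in control livers 2 and 3, 3-day livers 3 and 4 and all 3 livers at 7 days, and at 0.153 to 3.12 eRPKM in the other 4. The Yap1 row did not separate the groups, with 13.9 to 21.1 eRPKM in controls, 15.3 to 19.3 in the 3-day group and 17.4 to 19.0 in the 7-day group, and whether reads of the transgene were counted in it is not given in the sources used here, so it does not check the labels. Alb, the defining hepatocyte gene, was at 234 to 918 eRPKM over all livers.

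At 7 days of YAP induction 7 of the 10 genes rose against control, namely both sides of the Csf1 to Csf1r axis, the chemokine receptors Ccr2 and Cx3cr1, and Trem2, Cd68 and Lgals3. None of the 10 passed the test at 3 days, when 0.0421% of all tested genes did. Il34, Gpnmb and Lyz2 did not pass it at 7 days against control. A gene was called when limma gave a Benjamini-Hochberg adjusted p under 0.01 over all tested genes and an absolute log2 fold change above 0.5. Changes were frequent at 7 days: 23.8% of all tested genes were called against control, 18.0% as higher and 5.77% as lower. The median log2 fold change of the 10 genes was 2.28, beside 0.26 for all tested genes. It includes Gpnmb, which was tested only through its 7-day livers and whose own value was 1.47. Fold changes are on the log2(eRPKM + 0.5) scale, on which changes of low genes look smaller than they are. All 7 calls stood in each of 28 alternative analyses, including each that left out a liver and a fit of the 7 female libraries alone. The 28 also include a looser threshold, adjusted p under 0.05 at any fold, under which no call could be lost.

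**Figure D1:**
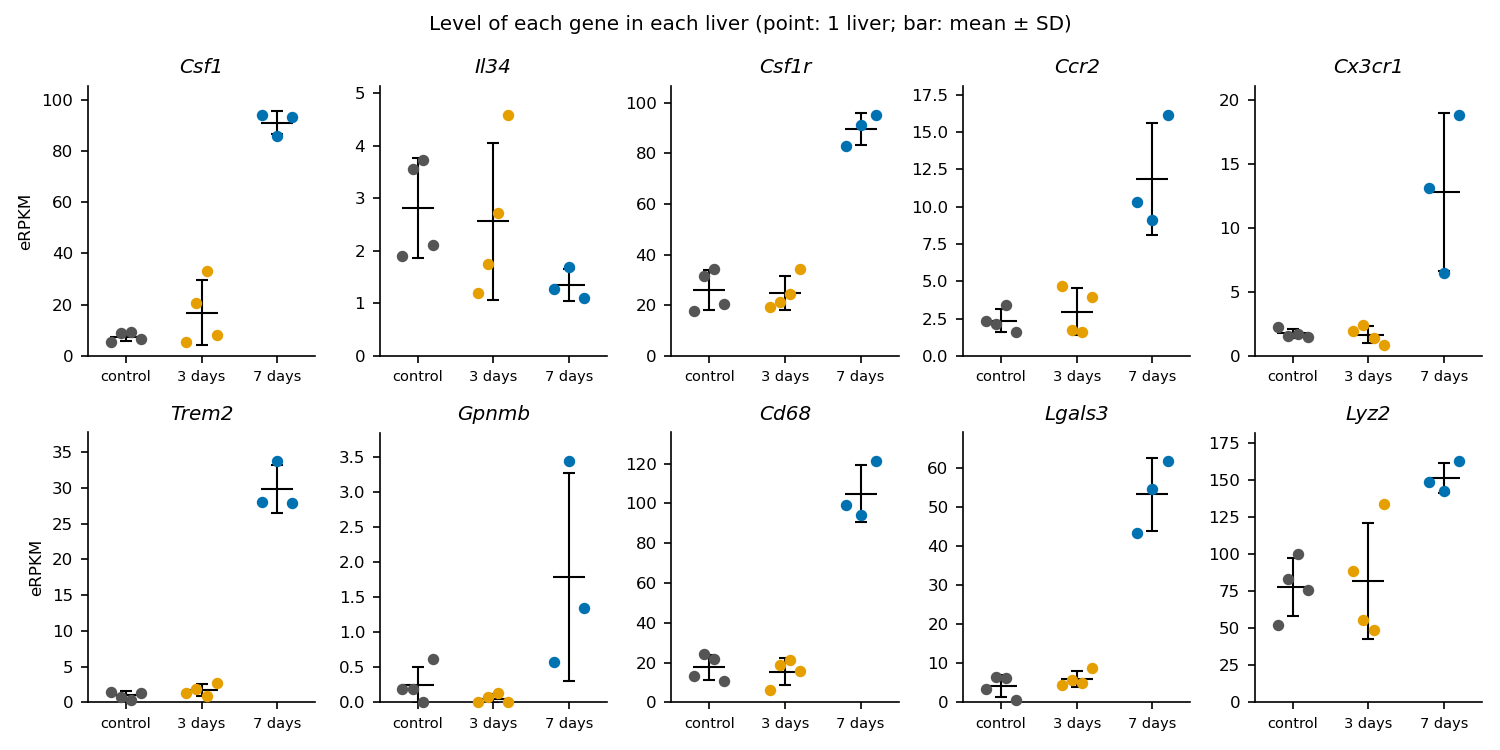
Level of each of the 10 genes in each liver, in eRPKM on a linear axis from 0, by group. Points are livers and bars are the mean ± SD of 4 controls, 4 livers at 3 days and 3 at 7 days. At 7 days, 8 genes lie above every control, Il34 lies below every control and Gpnmb overlaps.

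Without overlap between the groups, 8 of the 10 genes were higher in all 3 livers at 7 days than in all 4 controls, which held for 36.7% of all tested genes. Il34 was lower in all 3, as were 13.3% of tested genes. At 3 days the groups overlapped for all 10. Across all tested genes, 6 were called at 3 days against control, and without overlap 3.38% were higher and 2.25% lower. None of the 10 had an unadjusted p under 0.05 there, and limma-voom on the recovered reads also called none of them. Without 3-day liver 1 the number of genes called at 3 days was 54, and none of the 10 was among them; without any other single liver it was 0 to 5.

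Short sequence motifs upstream of the gene starts were looked up as a description. The 250 bases before the start, from RefSeq (GRCm38.p6), were searched for 8 of the 10 genes. These were 6 of the 7 that rose against control, with Gpnmb and Lyz2, while Csf1r and Il34 were not searched. The letters searched, on both strands, were GGAATG for TEAD factors, GAGGAAGT for PU.1, TGANTCA for AP-1 and CACGTG for the CLEAR E-box of lysosomal genes. For NF-kB they were GGG, any 3 bases and TTCC. The 3 windows that hold a match are shown, with the matched letters in capitals, read 5′ to 3′ on the strand of the gene. The window of Csf1 is chr3:107760470-107760719 (minus strand), that of Trem2 is chr17:48346151-48346400 (plus strand) and that of Cd68 is chr11:69666171-69666420 (minus strand).
Csf1: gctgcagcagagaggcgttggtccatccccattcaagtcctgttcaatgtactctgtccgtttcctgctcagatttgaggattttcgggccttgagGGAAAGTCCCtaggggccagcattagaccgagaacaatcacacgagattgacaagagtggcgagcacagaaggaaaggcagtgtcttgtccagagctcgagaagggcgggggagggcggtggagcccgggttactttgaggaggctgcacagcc
Trem2: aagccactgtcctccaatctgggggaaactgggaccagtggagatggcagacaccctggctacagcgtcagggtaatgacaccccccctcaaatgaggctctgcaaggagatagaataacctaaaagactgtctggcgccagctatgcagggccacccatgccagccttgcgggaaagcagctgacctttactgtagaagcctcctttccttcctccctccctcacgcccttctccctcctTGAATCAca
Cd68: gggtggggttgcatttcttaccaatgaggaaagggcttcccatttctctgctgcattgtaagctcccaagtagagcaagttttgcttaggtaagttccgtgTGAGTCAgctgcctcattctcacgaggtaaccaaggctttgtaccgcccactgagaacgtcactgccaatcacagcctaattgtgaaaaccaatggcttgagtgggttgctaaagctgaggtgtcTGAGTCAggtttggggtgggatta
The match in Csf1 is to the NF-kB letters and begins 154 bases before the start. The match in Trem2 is to AP-1 and begins 9 bases before the start. Cd68 holds the AP-1 letters at 149 and at 24 bases before its start. Of 32851 promoter windows of the same length, 4.65% held the NF-kB letters and 6.75% the AP-1 letters. The TEAD, PU.1 and CLEAR letters stand in 12.6%, 2.44% and 6.02% of windows and in none of these 8. A match of these letters is not a binding site, and the windows of Ccr2, Cx3cr1, Gpnmb, Lgals3 and Lyz2 held none of the 5 motifs.

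Csf1, the main ligand of Csf1r, lies at chr3:107543966-107563387 (mm9, minus strand). Its level was 5.55, 8.81, 9.49 and 6.41 eRPKM in control livers 1 to 4, 5.49, 20.5, 33.1 and 8.27 in 3-day livers 1 to 4, and 94.0, 85.8 and 93.2 in the 3 livers at 7 days. All livers at 7 days stood far above the rest, the lowest at 9.04 times the highest control. The mean was 7.56 ± 1.88 (SD, n = 4) eRPKM in controls and 91.0 ± 4.54 (SD, n = 3) at 7 days, based on 40 to 242 reads per liver in controls and 2470 to 2546 at 7 days. The change was 11.6-fold (log2 fold change 3.53, SE 0.46, limma adjusted p = 8.91e-05), a place of 89 from the top among all tested genes. At 3 days the livers were split: livers 2 and 3 were above every control and livers 1 and 4, the pair with the suffix MF, were not. The log2 fold change at 3 days was 0.81 (SE 0.42, limma adjusted p = 0.476), and the coefficient of variation was 75.1%, against 24.9% in controls and 4.99% at 7 days. From 3 to 7 days Csf1 rose by a log2 fold change of 2.72 (SE 0.46, limma adjusted p = 0.000757).

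Il34, the second ligand of Csf1r, lies at chr8:113265729-113329824 (mm9, minus strand). It was at 1.90, 3.55, 3.73 and 2.11 eRPKM in the controls, 1.19, 1.75, 2.73 and 4.59 at 3 days, and 1.28, 1.69 and 1.09 at 7 days. The livers at 7 days were below every control, and the 3-day livers covered almost the whole range. The log2 fold change at 7 days was -0.81 (SE 0.37, limma adjusted p = 0.0999). It passed the test after quantile normalization (log2 fold change -1.35, adjusted p = 0.00534) and with Xist as a covariate (-1.15, adjusted p = 0.00943), and over all alternatives its adjusted p ran from 0.00534 to 0.251. The difference rests on 5 to 37 reads per liver in controls and 11 to 19 at 7 days. Exons of Gm15894 and Gm15895 overlap those of Il34 and the counting used no strand, so reads of these genes cannot be separated.

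Csf1r, the receptor of both ligands, lies at chr18:61265226-61291803 (mm9, plus strand) and shares exonic sequence with Hmgxb3. It stood at 17.9, 31.7, 34.2 and 20.6 eRPKM in the controls, 19.2, 21.1, 24.4 and 34.3 at 3 days, and 82.8, 91.4 and 95.2 at 7 days. Controls and 3-day livers covered the same range, and every liver at 7 days was at least 2.42 times the highest control. Csf1r rose 3.52-fold at 7 days (log2 fold change 1.81, SE 0.24, limma adjusted p = 0.000116). At 3 days its log2 fold change was -0.06 (SE 0.23, limma adjusted p = 0.945).

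Among the livers, the 3 genes whose profile lay nearest to that of Csf1 were Rhbdf1, Alpl and Ptgr1, by the root mean square difference of centred log2 levels over the 11 livers (0.22, 0.29 and 0.34). Rhbdf1 went from a mean of 3.09 eRPKM in controls through 7.18 at 3 days to 35.6 at 7 days. Nearest to Csf1r were Nlrc4, Tmem132a and Ifngr1 (0.14, 0.15 and 0.17), and Ifngr1, a subunit of the interferon gamma receptor, had mean levels of 20.4, 17.9 and 64.5 eRPKM in the 3 groups.

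The chemokine receptors Ccr2, of inflammatory monocytes, and Cx3cr1, of patrolling monocytes and some macrophages, both rose at 7 days. Ccr2 was at 2.34, 2.14, 3.42 and 1.60 eRPKM in the controls, 4.67, 1.72, 1.57 and 3.92 at 3 days, and 10.3, 9.12 and 16.2 at 7 days. All livers at 7 days were above all controls and all 3-day livers, with liver 3 the highest. Its log2 fold change was 2.10 against control (SE 0.36, limma adjusted p = 0.000707) and 1.91 against 3 days (adjusted p = 0.00176). The call against 3 days was lost without 7-day liver 3 (1.67, adjusted p = 0.0144) and after quantile normalization (1.35, adjusted p = 0.0212), over a range of adjusted p from 0.000206 to 0.0212 in all alternatives. At 3 days the livers with the suffix MF had the higher Ccr2, 3.92 to 4.67 eRPKM against 1.57 to 1.72, the opposite order to Csf1. Between these pairs 55.9% of all tested genes did not overlap, so a split of this kind is common.

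Cx3cr1 was at 2.27, 1.56, 1.73 and 1.46 eRPKM in the controls, 1.95, 2.44, 1.41 and 0.848 at 3 days, and 13.1, 6.47 and 18.8 at 7 days. The 3 livers at 7 days were all above the rest, but spread more widely than for any other called gene of the set, with a coefficient of variation of 48.2%. Liver 2, the lowest for Cx3cr1 and also for Ccr2, is the 7-day liver with the suffix MF. Cx3cr1 rose by a log2 fold change of 2.45 (SE 0.36, limma adjusted p = 0.000202).

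Trem2, a lipid-sensing receptor that signals through Tyrobp, made the largest rise of the 10. It stood at 1.52, 0.771, 0.353 and 1.36 eRPKM in the controls, 1.27, 1.87, 0.923 and 2.77 at 3 days, and 28.0, 33.7 and 27.8 at 7 days. The lowest liver at 7 days was at 18.2 times the highest control. It rose by a log2 fold change of 4.41 (SE 0.35, limma adjusted p = 3.36e-06), a place of 21 from the top of all tested genes. The controls held 15 Trem2 reads together, 1 to 7 per liver, against 587 at 7 days. Per library size this is a ratio of 30.7, with a 95% exact binomial interval of 18.5 to 55.3 that covers counting error only. At 3 days 2 of 4 livers were above all controls, and the log2 fold change was 0.57 (SE 0.32, limma adjusted p = 0.508).

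Gpnmb, a transmembrane glycoprotein of phagocytic macrophages, remained, next to Il34, the scarcest of the 10. It was at 0.197, 0.186, 0 and 0.613 eRPKM in the controls, 0, 0.0704, 0.139 and 0 at 3 days, and 0.572, 3.44 and 1.35 at 7 days. Livers 2 and 3 at 7 days were above every control and liver 1 fell just under control liver 4, so the groups overlapped. Against control Gpnmb changed by a log2 value of 1.47 (SE 0.40) and missed the call with a limma adjusted p of 0.0113. It passed without control liver 4 (1.68, adjusted p = 0.00835) or without 7-day liver 1 (1.91, adjusted p = 0.00356), was 0.97 at the least when a liver was left out, and had adjusted p between 0.00356 and 0.0545 over all alternatives. The 4 controls held 10 reads in all and the 3 livers at 7 days 120, a ratio per library size of 9.43 (95% exact binomial interval 4.95 to 20.2).

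Against 3 days, where 3 reads were found in 4 livers, Gpnmb was called (log2 fold change 1.85, SE 0.40, limma adjusted p = 0.00370). The call was lost without 3-day liver 1 (adjusted p = 0.0105), 3-day liver 4 (0.0109), 7-day liver 2 (0.0168) or 7-day liver 3 (0.0150), over a range of 0.00152 to 0.0338 in all alternatives. The ratio of reads was 32.9, with an interval of 11 to 162.

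Cd68, a lysosomal glycoprotein of macrophages, lies at chr11:69477715-69479655 (mm9, minus strand). Its level was 13.3, 24.1, 22 and 10.8 eRPKM in the controls, 6.14, 18.6, 21.4 and 15.9 at 3 days, and 99.3, 94.2 and 121 at 7 days. The livers at 7 days stood at no less than 3.90 times the highest control. The log2 fold change was 2.61 (SE 0.38, limma adjusted p = 0.000184), and from 3 to 7 days it was 2.84 (adjusted p = 0.000137).

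Lgals3, encoding galectin-3, a secreted lectin of macrophages and injured epithelia, was at 3.38, 6.38, 6.24 and 0.501 eRPKM in the controls, 4.47, 5.70, 4.94 and 8.85 at 3 days, and 43.3, 54.5 and 61.6 at 7 days. Control liver 4, the shallowest library, held a single Lgals3 read. All livers at 7 days were above all others, the lowest at 6.78 times the highest control. Lgals3 rose by a log2 fold change of 3.86 (SE 0.53, limma adjusted p = 0.000143) and 3.23 without control liver 4. At 3 days it was 0.78 (SE 0.49, limma adjusted p = 0.554).

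Lyz2, at chr10:116714390-116719377 (mm9, minus strand), had the highest level of the 10 in every group and the smallest change among those that were higher at 7 days. It was at 52.2, 83.4, 99.9 and 76.2 eRPKM in the controls, 88.8, 55.4, 49.2 and 134 at 3 days, and 149, 143 and 163 at 7 days. All livers at 7 days were above all others, the lowest at 1.43 times the highest control, and 3-day liver 4 came close to them. The log2 fold change was 0.99 (SE 0.31), which missed the call with a limma adjusted p of 0.0225. It passed without 3-day liver 4 (adjusted p = 0.00691), with only the groups compared in the fit (0.00384) and after quantile normalization (1.45, adjusted p = 0.00141), over a range of 0.00141 to 0.155.

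Lyz2 also lay nearest to the top of what the libraries showed. At 7 days its reads per kilobase were 54.8% to 58.7% of the highest of any gene in the same library, against 7.44% to 30.5% in the controls, and for the other 9 genes this share did not pass 43.6%. Whether this ceiling lowered the measured change of Lyz2 was not tested. Reads of Lyz2 can be split with its near copy Lyz1, which, as seen after the values were known, was the gene nearest to it in profile.

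**Figure D2:**
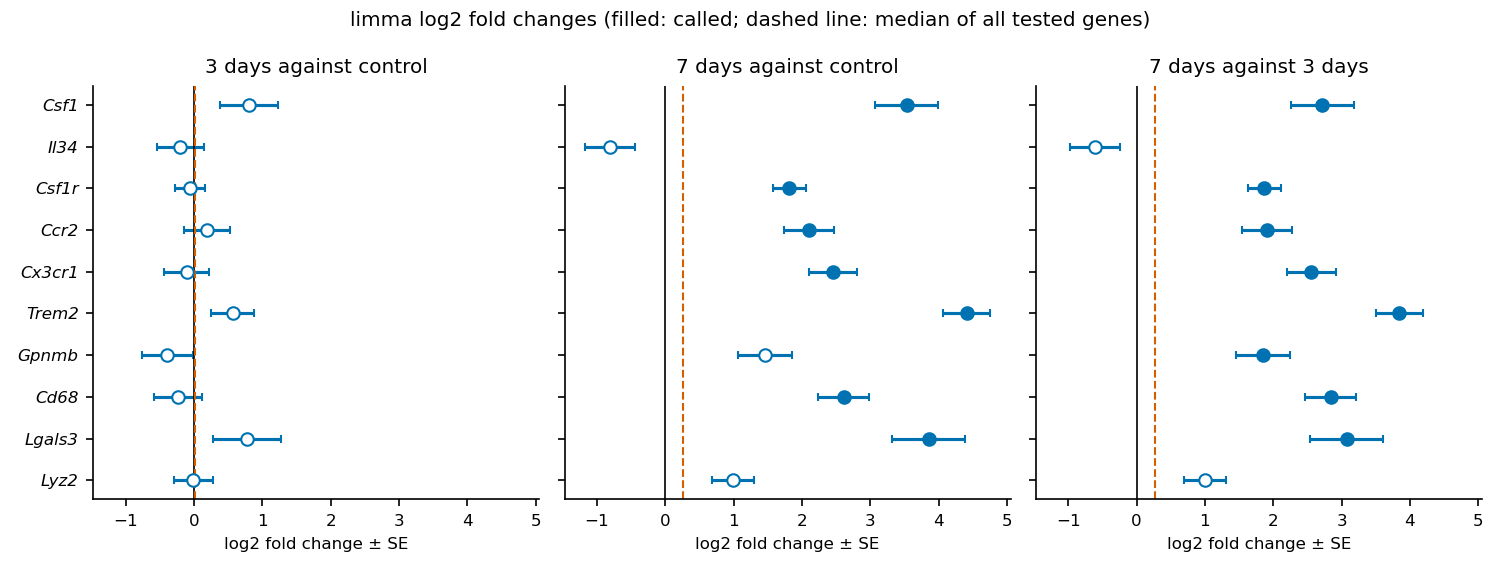
limma log2 fold changes with standard errors for the 10 genes in the 3 comparisons, on a shared axis. Filled points passed the call and the dashed line marks the median of all tested genes, 0.26 at 7 days against control. No point is filled at 3 days, 7 are filled at 7 days against control and 8 at 7 days against 3 days.

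Between 3 and 7 days 7 of the 9 genes other than Gpnmb rose, the same 7 as against control, where 19.3% of all tested genes were called, 14.0% as higher and 5.31% as lower. Gpnmb passed as well, but it entered the test only through its 7-day livers and is not counted here. Without overlap, 8 of these 9 were higher at 7 than at 3 days, Lyz2 being the eighth, and 31.3% of tested genes were. The comparisons at 7 days against control and against 3 days share the 7-day livers and are not independent. The changes were close in size for Csf1r (1.81 and 1.87) and Cx3cr1 (2.45 and 2.56), and smaller against 3 days for Csf1 (3.53 and 2.72), Trem2 (4.41 and 3.85) and Lgals3 (3.86 and 3.08). The 3-day means of these last 3 genes were above the control means, by 2.23, 1.71 and 1.45 times, although none of these 3-day differences passed the test.

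The order of the levels changed between the groups. In controls Lyz2 (mean 77.9 eRPKM) was followed by Csf1r (26.1), Cd68 (17.6), Csf1 (7.56), Lgals3 (4.12), Il34 (2.82), Ccr2 (2.37), Cx3cr1 (1.75), Trem2 (1.0) and Gpnmb (0.249). Only Lyz2 and Csf1r, and Cd68 and Csf1, were neighbours whose livers did not overlap. At 7 days the order was Lyz2 (152), Cd68 (105), Csf1 (91.0), Csf1r (89.8), Lgals3 (53.1), Trem2 (29.8), Cx3cr1 (12.8), Ccr2 (11.9), Gpnmb (1.78) and Il34 (1.35). Here Csf1 and Csf1r overlapped, as did Cx3cr1 and Ccr2, and Gpnmb and Il34, while the other neighbours were apart. In eRPKM, Csf1 thus came level with its receptor, and Trem2 passed from the ninth to the sixth place.

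Relative to Csf1r in the same liver, the genes moved unequally. The log2 ratio of Csf1 to Csf1r was -1.8 to -1.6 in the controls and -0.09 to 0.18 at 7 days. Trem2 per Csf1r went up by 2.60 on the log2 scale, Lgals3 by 2.04, Csf1 by 1.72 and Cd68 by 0.80, each with all livers at 7 days above all controls. Ccr2 and Cx3cr1 kept overlapping ratios, with differences of 0.29 and 0.64, and Gpnmb overlapped as well (-0.35). Lyz2 per Csf1r was lower in all livers at 7 days (-0.82), as were Il34 (-2.62) and the Kupffer cell gene Clec4f (-0.94). Csf1r itself overlapped when set against Ptprc, the pan-leukocyte phosphatase CD45 (-0.14). These ratios are descriptions and were not tested.

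**Figure D3:**
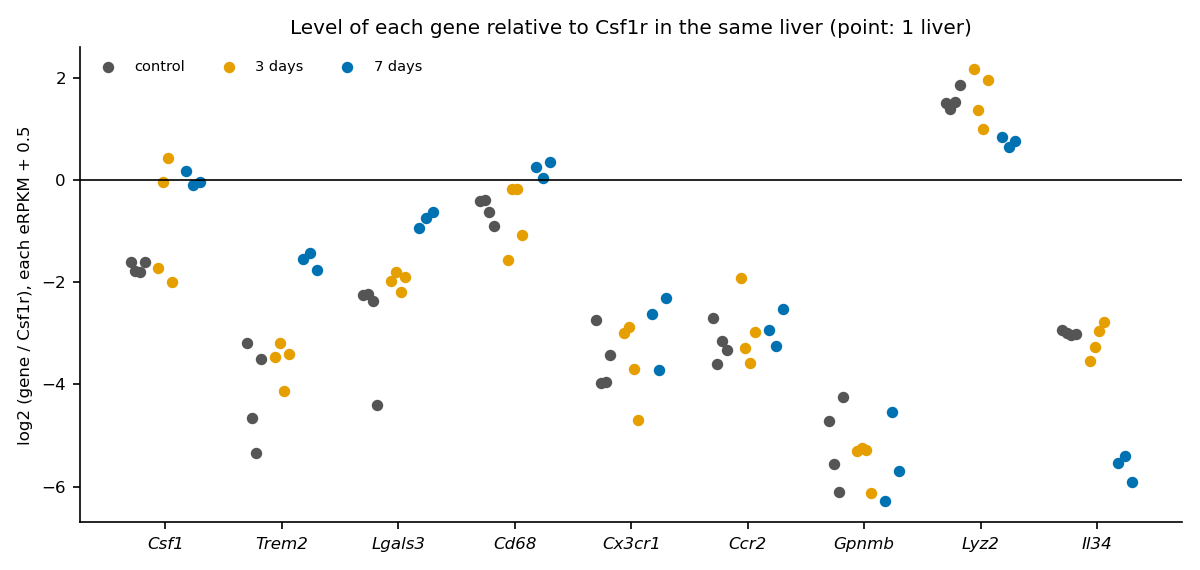
Log2 ratio of 9 genes to Csf1r in the same liver, with 0.5 eRPKM added to each, by group; points are livers. Csf1, Trem2, Lgals3 and Cd68 at 7 days lie above all controls, Lyz2 and Il34 below, and 2 of the 4 livers at 3 days reach the 7-day range of Csf1.

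The ligands of the chemokine receptors were measured alongside. Of 4 tested ligands of Ccr2 and Cx3cr1, 2 rose at 7 days against control, beside 18.0% of all tested genes. Ccl2, the main attractant of Ccr2-bearing monocytes, went from 1.42 ± 1.27 (SD, n = 4) to 12.7 ± 6.79 (SD, n = 3) eRPKM (log2 fold change 2.93) and Cx3cl1, the ligand of Cx3cr1, from 0.267 ± 0.209 (SD, n = 4) to 1.56 ± 0.479 (SD, n = 3) (1.44). Their highest read number in a control was 8 and 9. Neither was called against 3 days. There all 4 ligands had an unadjusted limma p under 0.05 and higher levels. Of all 14244 tested genes, 6578 had such a p in either direction. Ccl7 and Ccl12 passed the filter only with their 7-day livers, so their p and their part in the list median are descriptions. The list's median log2 fold change against control was 1.59.

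The other colony stimulating factors themselves were barely seen: Csf2 had no read in any liver and Csf3 at most 3. Their receptors were called instead, 3 of the 4 tested, beside 18.0% of all tested genes called as higher. Csf2ra, the ligand-binding chain for GM-CSF, went from 3.26 ± 1.78 (SD, n = 4) to 37.7 ± 6.73 (SD, n = 3) eRPKM (log2 fold change 3.45), and the shared signalling chain Csf2rb from 4.18 ± 0.305 (SD, n = 4) to 29.6 ± 2.76 (SD, n = 3) (2.68). Csf2rb2 rose by 1.90.

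Downstream of Csf1r and Trem2, 11 of 13 signalling genes rose at 7 days, beside 18.0% of all tested genes. The median log2 fold change of the 13 was 2.24. Tyrobp, the adaptor of Trem2, ranged over 18.0 to 39.3 eRPKM in controls, 21.7 to 70.8 in 3-day livers and 105 to 126 in 7-day livers (log2 fold change 2.02). The largest rises were those of Spi1, which encodes the myeloid transcription factor PU.1 (3.02), Inpp5d, the phosphatase SHIP1 (2.96), and Pik3cd, a leukocyte PI3-kinase (2.79). Hcst and Grb2 were not called. All their livers at 7 days were above all controls, which held for 36.7% of all tested genes.

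Genes of lipid-associated macrophages, the state for which Trem2 and Gpnmb are best known, did not move as a block. Of 18 tested, 4 rose, 1 fell and 13 were not called, and the median log2 fold change was 0.40. Over all tested genes 18.0% rose and 5.77% fell. The actin-capping gene Capg rose from 2.53 ± 1.17 (SD, n = 4) to 37.8 ± 7.65 (SD, n = 3) eRPKM (log2 fold change 3.73), the tetraspanin Cd9 by 1.82 and the membrane protease Mmp14 by 1.41. The fatty-acid binding protein Fabp5 fell by 1.94 on the log2 scale. Many of these genes, such as the cathepsins, Apoe and Apoc2, are also made by hepatocytes, and the summed level of the list was 1138 to 2213 eRPKM in controls and 1226 to 1303 at 7 days. Apoe alone stood at 93.7% or more of the highest reads per kilobase in every library, with 1651 to 1896 reads in controls and 1873 to 1889 at 7 days, so its eRPKM moved with depth, and the part of this in the sum was not tested.

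Marker genes of macrophages and their neighbours moved at the same time, and their part in the changes of the 10 genes was not tested. Among all tested genes 18.0% rose at 7 days. Of 15 pan-macrophage genes 14 rose (median log2 fold change 1.51), among them the endotoxin co-receptor Cd14 (3.38) and the Fc receptor gene Fcgr1 (2.92). Their summed level was 315 to 534 eRPKM in controls, 374 to 683 in 3-day livers and 1228 to 1331 in 7-day livers. Adgre1, the gene of F4/80, was not analysed here. Of 14 monocyte genes 6 rose (median 1.41), with Ifitm6 (3.95), Nr4a1 (3.27) and the integrin Itgam (3.26) in front. The summed monocyte level was 24.2 to 46.6 eRPKM in controls and 150 to 180 at 7 days. Ly6c2, a marker of inflammatory monocytes named here after its values were seen, was at 2.18 ± 0.927 (SD, n = 4) and 2.33 ± 2.13 (SD, n = 3) eRPKM (log2 fold change -0.23, limma adjusted p = 0.779).

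Beside 18.0% of all tested genes, 7 of 12 Kupffer cell genes rose (median 1.16). Their summed level went from 477 to 594 eRPKM in controls to 1064 to 1103 at 7 days. Marco (3.47), Cd163 (2.84) and Timd4 (2.84), which are scavenger and phosphatidylserine receptors of resident macrophages, had the largest changes. Clec4f, the lectin most restricted to Kupffer cells, was at 50.9 to 103 eRPKM in controls, 70.5 to 130 in 3-day livers and 130 to 153 in 7-day livers (log2 fold change 0.87, limma adjusted p = 0.0163, not called). Of 10 pan-leukocyte genes 7 rose (median 2.03), and their summed level was 98.5 to 146 eRPKM in controls and 357 to 438 at 7 days.

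Markers of other leukocytes were lower in level. Of the tested genes, 2 of 5 neutrophil markers, 1 of 7 dendritic cell markers and 1 of 10 T and NK cell markers rose. Among all tested genes 18.0% rose, which the dendritic cell and the T and NK cell counts do not exceed. The median log2 fold changes of these markers were 1.53, 0.63 and 0.39. Their summed levels at 7 days were 35.6 to 49.9, 25.4 to 41.6 and 10.6 to 18.5 eRPKM, against 16.7 to 27.8, 14.4 to 21.1 and 3.97 to 14.2 in controls. For B cell markers no gene of 5 passed the limma test and none had an unadjusted p under 0.05 (median 0.18). Their sum was 4.40 to 9.67 eRPKM in controls and 5.22 to 14.5 at 7 days. No marker of these 4 lists that was found in the table was at 0 in all livers at 7 days.

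Among non-leukocyte markers, 4 of 10 hepatocyte genes and 2 of 8 stellate cell genes fell, with median log2 fold changes of -0.95 and -0.46. Cyp2e1, a cytochrome of pericentral hepatocytes, fell by 2.0 on the log2 scale. The summed hepatocyte level was 1830 to 5139 eRPKM in controls and 1243 to 1467 at 7 days. Alb and Apoa1 of this list stood at 82.9% or more of the highest reads per kilobase in every library, Alb with 2417 to 3102 reads in controls and 2840 to 2934 at 7 days, so their eRPKM moved with depth, and the part of this in the lower sum was not tested. The stellate cell list summed to 196 to 238 eRPKM in controls and 125 to 147 at 7 days. Of 8 liver endothelial genes 3 rose (median 0.60, summed level 138 to 246 eRPKM in controls and 251 to 292 at 7 days), and of 6 cholangiocyte genes 1 did (Krt7, median 1.02, 43.1 to 53.4 and 68.0 to 123 eRPKM). Most of the cholangiocyte sum was Spp1, with means of 38.7 eRPKM in controls and 67.4 at 7 days. Spp1 was not called (limma adjusted p = 0.0477) and also stands in the lipid-associated macrophage list. Over all tested genes 18.0% rose and 5.77% fell. At 3 days none of the 148 tested genes of these 16 lists was called by limma, and 14 (9.46%) had an unadjusted p under 0.05, against 12.1% of all tested genes.

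**Figure D4:**
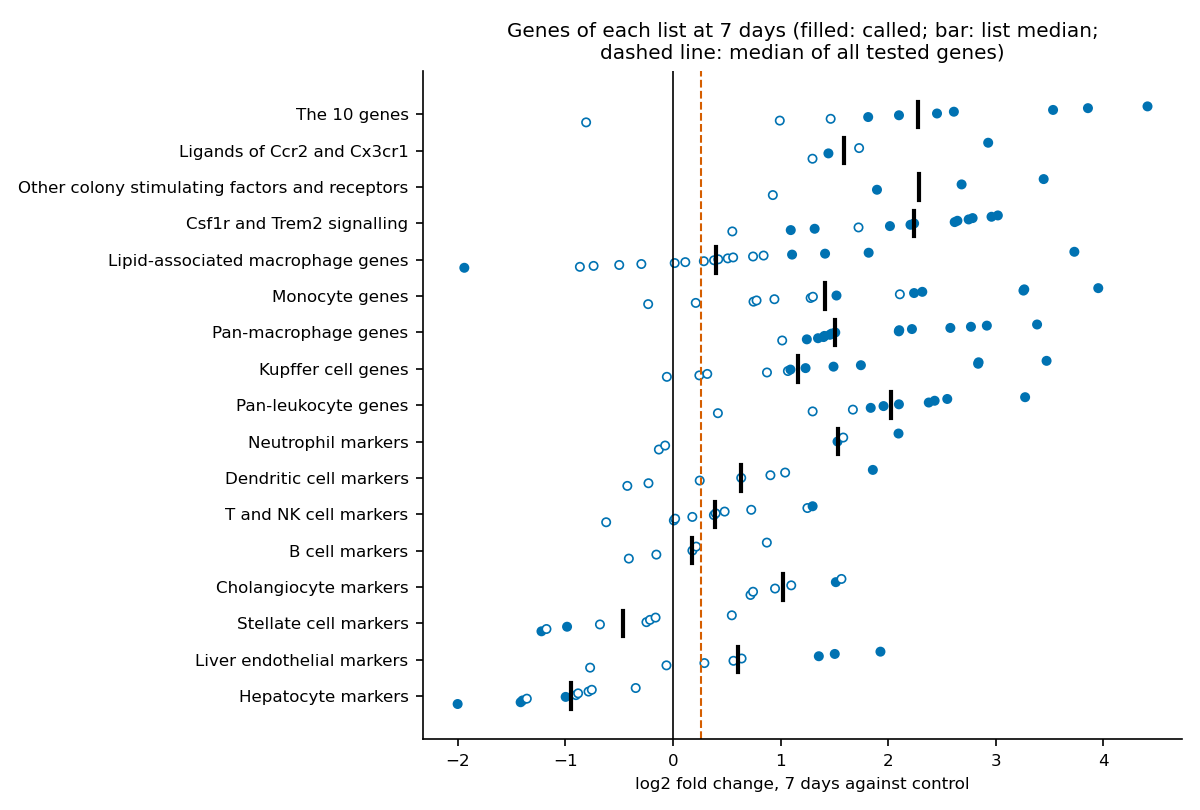
limma log2 fold change at 7 days against control of each tested gene of the 10-gene set and of 16 lists; filled points passed the call, bars are list medians and the dashed line is the median of all tested genes (0.26). Medians of the colony stimulating factor receptors (2.29), of Csf1r and Trem2 signalling (2.24) and of pan-leukocyte genes (2.03) stand near that of the 10 genes (2.28), and hepatocyte and stellate cell medians lie below 0.

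Between the 3-day livers with and without the suffix MF, 5 of the 10 genes did not overlap, which is near the 55.9% of all tested genes that did not. The pair with the suffix was below the other pair for Csf1 (5.49 to 8.27 against 20.5 to 33.1 eRPKM) and Cd68 (6.14 to 15.9 against 18.6 to 21.4), and at 0 for Gpnmb, which rests on 3 reads in all. It was above the other pair for Ccr2 and for Lyz2 (88.8 to 134 against 49.2 to 55.4 eRPKM). The other 5 genes overlapped. With only 2 livers on each side no test was made, and with the suffix as a covariate none of the 10 genes was called at 3 days and the same number, 7, at 7 days against control.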

How the data were processed

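Bulk RNA-seq of total RNA (TruSeq RNA v2 libraries) was available for 11 livers in 3 groups taken from the sample labels. The authors masked low-quality bases and aligned read pairs to mm9 with TopHat2 2.0.8, without strand information. The submitters' processing notes also name featureCounts 1.4.5-p1 and DESeq2. Annotation and duplicate handling are not given in the sources used here. The deposited values are eRPKM, a form of RPKM that the authors normalized to library size, with a column per liver. The table also holds the authors' DESeq2 mean, log2 fold change and adjusted p for 7 days against control, which were not used. Within each gene the values were whole multiples of a single step, from which reads were recovered: 177553 of 177553 nonzero values lay less than 0.1 from a whole number.

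Genes that reached 0.5 eRPKM in 3 or more livers entered a single limma 3.58.1 fit (R 4.3.3) of log2(eRPKM + 0.5) on the 3 groups, with a moderated, trended variance, no covariate and Benjamini-Hochberg adjustment. Calls used the study's thresholds (adjusted p below 0.01, log2 fold change beyond 0.5 in size). The script was tested on simulated data. Positions came from GENCODE M1 on mm9, which matched the files' build, and promoters from RefSeq. The 10 genes, the marker lists and the tests were chosen with earlier results of these data known, so no p over the 10 genes or a list was computed. Named list genes were the called genes with the largest change at 7 days, at most 4 a list, whose livers at 7 days lay on one side of all controls. Alternatives changed the pseudocount, filter, normalization, model, covariates and libraries. Samples of a group were not identical in any pair. Intervals cover counting error only.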

Additional observations from a re-analysis of the deposited data

Results flagged for a closer look

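Gpnmb aside, the effect at 7 days differed from that at 3 days for 7 genes. This was the limma test of the difference itself, in which the shared controls cancel. In it 19.3% of all tested genes were called, 14.0% as higher. The 7-day effect was higher by 2.72 on the log2 scale for Csf1, by 1.87 for Csf1r, by 1.91 for Ccr2, by 2.56 for Cx3cr1, by 3.85 for Trem2, by 2.84 for Cd68 and by 3.08 for Lgals3. The limma adjusted p ran from 1.15e-05 (Trem2) to 0.00176 (Ccr2). For each of the 7, all 3 livers at 7 days were above all 4 at 3 days, as for 31.3% of all tested genes. Gpnmb also passed (1.85, limma adjusted p = 0.00370). It entered the test only through its 7-day livers and had 3 reads in all 4 livers at 3 days, so its difference is a description. The call of Gpnmb was lost without 3-day liver 1 or 4 or 7-day liver 2 or 3 (adjusted p 0.0105 to 0.0168), and that of Ccr2 without 7-day liver 3 (0.0144). Of 20 sets of 4 livers, that is each of the 10 genes in the controls and at 3 days, none held a liver that stood apart by Dixon's limit, where chance gives about 1 in 20.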

How the results depend on the processing

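At 7 days the direction of all 10 genes held in every alternative (Gpnmb could not be tested with a mean of at least 1 eRPKM). The 7 calls against control held in all 28. These include a looser threshold, adjusted p under 0.05 at any fold, under which no call could be lost. Of the 10 genes, 7 to 9 were called, beside 1676 to 5390 of all tested genes. The 9 after quantile normalization were 8 rises and 1 fall (Il34). Against 3 days 6 to 9 were called, beside 1343 to 5085 of all tested genes. At 3 days none was, beside 0 to 54. Single-gene calls at 7 days changed 24 times (15 gained, 9 lost), all of Gpnmb, Lyz2, Il34 or Ccr2. Directions turned only at 3 days, for uncalled genes. With the suffix MF as a covariate Ccr2 became -0.060, Cx3cr1 0.25 and Cd68 0.10. Lyz2 became 0.00664 with Xist, 0.024 with depth, 0.0020 with limma-voom and 0.19 with the 2 deepest controls only. Csf1r was 0.019 with those controls (an alternative chosen after seeing the data) and Ccr2 was -0.088 in female libraries. Leaving out a liver gave -0.22 to 0.088 for Csf1r, -0.28 to 0.20 for Lyz2, -0.48 to 0.049 for Il34, -0.039 to 0.40 for Ccr2, -0.43 to 0.15 for Cd68 and -0.27 to 0.10 for Cx3cr1. The cause was not tested.

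Counts over all genes at 3 days, 6 in the report, were 0 with only 2 groups, without trend or with the 2 deepest controls, 1 with depth or limma-voom, 3 without a filter, 10 with the suffix MF, 12 with size factors, 16 with Xist and 41 at adjusted p under 0.05; leaving out a liver gave 0 to 54. At 7 days against control, 3383 became 1676 with depth, 2169 in females, 1985 with the 2 deepest controls, 5390 at adjusted p under 0.05 and 1978 to 3682 without a liver (2170, 2157 and 1978 without 7-day livers 1, 2 and 3). At 7 against 3 days, 2753 became 1679, 1467 and 5085 with depth, in females and at 0.05, and 1343 to 3683 without a liver (1547, 1433 and 1343 without the same livers). The share of rises against control, 75.7%, was 60.9% with size factors and 50.5% after quantile normalization, which moved the median of all genes from 0.26 to 0.03 and -0.08.

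The replicate numbers did not pair the livers: deviations of same-numbered livers correlated at -0.22 to 0.27, over 0.1 in 2 of 10 pairs. With the replicate block 3, 2720 and 1981 genes and 0, 7 and 8 of the 10 genes were called in the 3 comparisons. Depth limits Gpnmb and Trem2 most, with at most 4 and 7 reads in a control, and Cx3cr1, Il34, Ccr2 and Lgals3 had at most 34, 37, 53 and 56.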
